A study of Mus musculus with 4 samples.

Results

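The Th2 cytokine locus of the mouse holds Il4, Il13 and Il5, which encode the interleukins that define type 2 helper T cells, and Rad50, which lies between Il13 and Il5. All probe sets whose platform annotation gave 1 of these 4 symbols alone were taken, which gave 5 of 45037 probe sets, controls left aside: 1449864_at for Il4, 1420802_at for Il13, 1450550_at for Il5, and 1422630_at and 1425939_at for Rad50. They stand for 4 of 18193 measured genes. Expression was measured in total RNA on 4 Affymetrix arrays, 1 array per group. The starting population was naive CD4+CD44-CD62L+ T cells, taken from spleen and lymph nodes and sorted by flow cytometry. They were stimulated through CD3 and CD28 over 3 days, kept for 4 days in interleukin-2 at 50 U/ml, and on day 7 restimulated for 2 h through CD3 and CD28. Th1 cultures had interleukin-12 at 20 ng/ml, then 10 ng/ml, with an antibody against interleukin-4 in the activation phase. Th2 cultures had interleukin-4 at 10 ng/ml throughout, with an antibody against interferon gamma in the activation phase. The polarizing cytokine was present in the restimulation as well. The groups were Th1 cells from C57BL/6J (wild type) mice, Th1 cells from C57BL6-STAT4<tm1> (STAT4KO) mice, Th2 cells from C57BL/6J (wild type) mice and Th2 cells from B6.129S2©-STAT6<tm1Gru>/J (STAT6KO) mice. The age of the mice, and whether a sample was pooled from several, are not given in the labels. Every Th2 culture, the STAT6-deficient one included, received interleukin-4 from outside, and every Th1 culture had interleukin-4 neutralized during activation. Since no group was replicated, no test or p-value is given, and each difference describes 2 arrays.

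Interleukin-4 drives Th2 differentiation through its receptor and the transcription factor STAT6, which raises GATA3, the Th2 master regulator. Interleukin-12 acts through STAT4 and favours the Th1 fate, in which T-bet holds the Th2 cytokine genes down. Interleukin-4 and interleukin-13 share a receptor chain, IL-4Rα, and act on B cells, macrophages and epithelium, while interleukin-5 is the growth and survival factor of eosinophils. Rad50 is an ATPase of the MRN complex, which detects DNA double-strand breaks. Its gene is expressed in most cells, and its 3′ part contains the locus control region that acts on the cytokine genes on either side.

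The promoters of the 3 cytokine genes are shown because these genes share a locus while their signals differed between the arrays in unlike ways. The sequences are the 250 bases before the outermost start of each gene, from RefSeq with build GRCm38.p6, read 5′ to 3′ on the gene's own strand, and 3 of the 4 members matched its promoter table, Rad50 being the other. Il4 lies on the minus strand at chr11:53618666-53618915, Il13 on the minus strand at chr11:53634703-53634952, and Il5 on the plus strand at chr11:53720544-53720793. Capitals mark matches, on either strand, to a GATA motif (AGATA or TGATA with either A or G as the last letter), to GGAAA, the core bound by the T cell receptor-activated NFAT factors, and to a STAT site, TTC and GAA on either side of 3 or 4 unspecified bases.
Il4: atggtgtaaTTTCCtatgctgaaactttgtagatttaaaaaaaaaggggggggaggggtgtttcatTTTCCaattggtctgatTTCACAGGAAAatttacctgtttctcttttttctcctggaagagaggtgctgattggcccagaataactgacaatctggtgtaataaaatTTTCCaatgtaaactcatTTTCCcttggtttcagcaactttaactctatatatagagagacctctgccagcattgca
Il13: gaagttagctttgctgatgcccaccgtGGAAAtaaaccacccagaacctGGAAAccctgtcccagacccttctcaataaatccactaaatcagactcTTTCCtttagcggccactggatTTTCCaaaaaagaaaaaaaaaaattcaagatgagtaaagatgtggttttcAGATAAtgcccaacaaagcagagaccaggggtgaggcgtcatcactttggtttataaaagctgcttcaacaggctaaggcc
Il5: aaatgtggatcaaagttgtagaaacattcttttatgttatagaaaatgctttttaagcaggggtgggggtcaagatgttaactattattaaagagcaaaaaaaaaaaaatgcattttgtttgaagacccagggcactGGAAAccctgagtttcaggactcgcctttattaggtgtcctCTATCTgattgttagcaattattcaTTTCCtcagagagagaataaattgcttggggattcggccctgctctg

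The Il4 window held 5 NFAT cores and 1 STAT site with 4 spacer bases, the spacing that STAT6 is known to prefer, at bases −167 to −158 from the start. The NFAT core at −161 to −157 overlaps that match. The Il13 window held 1 GATA motif at −81 to −76 and 4 NFAT cores. The Il5 window held 1 GATA motif at −72 to −67 and 2 NFAT cores. None of these 3 windows held a STAT site with 3 spacer bases. In the Il4 window printed here the letters of a GATA motif were not found, while the window of another Il4 start in the table held 1 at −80 to −75. Over all 32851 promoters of the RefSeq table, windows of the same 250 bases held a GATA motif in 26.5%, an NFAT core in 55.6%, a STAT site with 3 spacer bases in 7.02% and with 4 in 5.85%. The matches describe letters in these windows, not binding in these cells.

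The deposited values were log2 expression values made with RMA, and the array medians over probe sets ran from 5.63 to 6.01, so the arrays did not share 1 distribution. The pooled median of 5.82 serves here as a level minimum. A gene is called higher or lower where its values differ by at least 2-fold, a log2 difference of 1, and the brighter array reaches that minimum. Shares of all genes called are taken over the genes that reach it in the comparison. The disagreement between probe sets of the same gene gave a technical guide, with an SD on the log2 scale of 0.48 in the STAT4 comparison and 0.65 in the STAT6 comparison. It was 0.71 for the pair of wild types and 0.85 for the pair of deficient arrays. It does not cover variation between mice or cultures. In the targeted genes, Stat4 read 9.20 in the STAT4-deficient array against 11.45 in Th1 wild type, and the brighter Stat6 probe set read 10.92 in the STAT6-deficient array against 10.93 in Th2 wild type. Whether these probes lie in the deleted parts is not given in the sources used here, and a probe outside the deleted part checks nothing. For beta-actin the 3′ control probe set was brighter than the 5′ one by 2.08 log2 units in the STAT6-deficient array, against 0.32 to 0.85 in the others. All 8 measured CD4 T cell markers, such as Cd3d, Cd4 and Cd28, were above the level minimum in all 4 arrays.

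Il4 signal followed the culture condition and was also raised in the Th1 array without STAT4. The Il4 probe set read 9.06 in wild type Th1 cells, 12.07 without STAT4, 14.17 in wild type Th2 cells and 13.22 without STAT6. Its lowest value was thus in wild type Th1 cells and its highest in wild type Th2 cells, with the deficient arrays between them. The step from Th2 wild type to Th2 STAT6-deficient was the smallest in this order, at 0.95 log2 units, beside the guide SD of 0.65 for that pair. All 4 values were above the level minimum. In bulk RNA, fewer cells with a transcript and less of it per cell cannot be told apart.

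Il13, the partner of Il4 in type 2 responses, gave the same order of arrays. It read 7.80 in wild type Th1 cells, 10.66 without STAT4, 12.26 in wild type Th2 cells and 12.08 without STAT6. The Th2 arrays lay 0.18 log2 units apart, less than the guide SD, while each of the other steps exceeded 1 log2 unit.

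Il5 gave high signal in a single array. It read 4.34 in wild type Th1 cells, 4.99 without STAT4, 12.31 in wild type Th2 cells and 5.95 without STAT6. Only the wild type Th2 array was bright. The STAT6-deficient array stood 0.13 log2 units above the level minimum, and the Th1 arrays were below it. The Trp control probe sets, which target a bacterial gene, ran from 3.01 to 4.41 over the 4 arrays, so the Il5 value of wild type Th1 cells lay inside the range of a probe set with no mouse target. Dim values in these arrays are also coarse. The wild type Th1 array held 3605 distinct values for 45101 probe sets, and its Il5 value was shared by 382 of them, with the next value up to 0.05 away. Folds that rest on such a value are less certain than those between bright values, and no detection calls were used here.

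Rad50 was measured by a bright and a dim probe set, which disagreed. The bright one read 7.44 in wild type Th1 cells, 8.27 without STAT4, 10.28 in wild type Th2 cells and 8.73 without STAT6. Its order over the arrays was that of Il4 and Il13, and also that of Il5. Its range of 2.84 log2 units was narrower, against 5.11 for Il4, 4.45 for Il13 and 7.97 for Il5. The dim one, 1425939_at, read 4.44 in Th1 wild type, 5.60 without STAT4, 3.91 in Th2 wild type and 4.49 without STAT6, and it reached the level minimum in none. It was lowest in wild type Th2 cells, where the bright one was highest. Values for Rad50 below are those of the bright probe set.

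**Figure D1:**
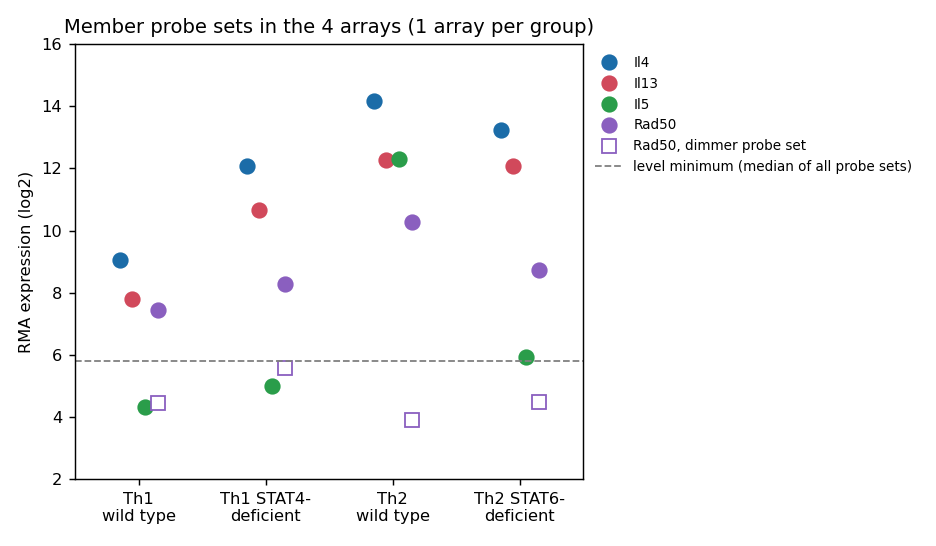
RMA expression on a log2 scale (vertical axis) of the 5 member probe sets in each of the 4 arrays (horizontal axis); filled circles are the probe set that stands for its gene, open squares the dimmer Rad50 probe set, and the dashed line the level minimum of 5.82. There are no error bars because each group had 1 array. Il5 is far above the line in wild type Th2 cells alone, where it reads 12.31, whereas Il4 and Il13 are bright in both Th2 arrays.

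The first comparison asked what changed in Th1 cultures when STAT4 was missing. The STAT4-deficient array showed 8.03-fold more Il4 and 7.21-fold more Il13 signal. Of 12608 genes at the level minimum, 11 lay further above wild type than Il4 and 12 further above than Il13. Rad50 was 1.78-fold higher, under the limit, and Il5 differed by 0.65 log2 units with neither array at the level minimum. So 2 of the 4 members were called, both higher, of the 3 that reached the level minimum. Among all genes at that level 11.5% were called, 6.18% higher and 5.34% lower. The median gene stood 0.17 higher in the STAT4-deficient array. Relative to it Il4 was 2.84, Il13 2.68 and Rad50 0.66 log2 units higher.

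Loss of STAT6 in Th2 cultures separated the cytokines of the locus. Il5 was 82.2-fold lower in the STAT6-deficient array, and 12 of 11490 genes lay further below wild type. Its value in that array was 0.13 log2 units above the level minimum, so the size of this fold is uncertain. Rad50 was 2.94-fold lower, with 959 genes further below, but its dim probe set differed by 0.59 the other way and the mean of both (−0.48) would not be called. Il4 was 1.93-fold lower, short of the limit, and Il13 was 1.13-fold lower, with 6483 genes further below it. In all 2 of the 4 members were called lower, where 26.5% of genes were called, 19.5% lower and 7.01% higher. Relative to the median gene, which stood at −0.19, the Il13 difference was 0.01 and that of Il4 was −0.76. Under quantile normalization the Il4 difference was −1.03, and on the scale set by the hybridization controls it was −1.07. Either would be called. After median centring and after loess Il13 stood 0.12 and 0.03 higher instead. The STAT6-deficient array also had the widest gap between its 3′ and 5′ actin controls (2.08 log2 units), and the part of RNA quality in these differences was not tested.

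In the wild types, all 4 members were higher in Th2 than in Th1 cells. The difference was 250-fold for Il5, 34.5-fold for Il4, 21.9-fold for Il13 and 7.18-fold for Rad50. The dim Rad50 probe set, under the level minimum, was 0.54 log2 units higher in Th1, and the mean of both differed by −1.15. Of 12111 genes at the level minimum, 3 lay further on the Th2 side than Il5, 23 than Il4, 43 than Il13 and 238 than Rad50. Over all genes 33.5% were called, 25.4% higher in Th2 and 8.14% higher in Th1. The Il5 fold sets a bright value against one in the range of the bacterial control, so its size is uncertain. The labels name these samples as separate controls for the STAT4 and STAT6 experiments, so source or handling and culture condition cannot be told apart.

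Between the deficient arrays all 4 members were lower in the Th1 array, Rad50 by its bright probe set only. The Th1 values were below those of the Th2 STAT6-deficient array by 1.15 log2 units for Il4, 1.42 for Il13, 0.96 for Il5 and 0.46 for Rad50. The dim Rad50 probe set, under the level minimum, was 1.10 higher in the Th1 array, and the mean of both was 0.32 higher. Il4 and Il13 were called, where 22.9% of genes were called, 10.3% lower and 12.6% higher in the Th1 array. The guide SD of this pair was 0.85. The Il4 call was lost under quantile normalization (−0.85) and loess (−0.88), and an Il5 call appeared under median centring (−1.19), quantile normalization (−1.49) and loess (−1.06).

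Each deficient array was also set against the wild type array of the other culture condition. In STAT6-deficient Th2 cells Il13 was 19.3-fold and Il4 17.9-fold higher than in wild type Th1 cells, and Rad50 was 2.45-fold higher. For Il5 the levels were 5.95 and 4.34, just above the level minimum and within the bacterial control range, so no fold is given. In STAT4-deficient Th1 cells Il4 was 4.30-fold, Il13 3.04-fold and Rad50 4.04-fold lower than in wild type Th2 cells, while Il5 read 4.99 against 12.31. With the mean of both Rad50 probe sets these Rad50 differences were 0.67 and −0.16, and neither would be called. The arrays are those of the comparisons above, so the values are not independent of them. For Il4 and Il13 the STAT4-deficient Th1 array lay between the wild types, and for Il5 it was below the level minimum, as the wild type Th1 array was.

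**Figure D2:**
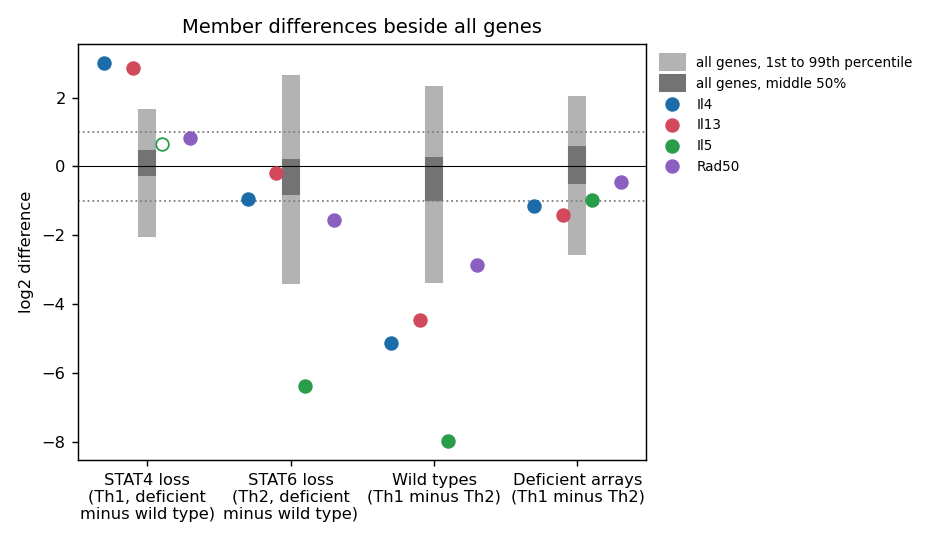
Log2 differences (vertical axis) of the 4 members in the 4 comparisons (horizontal axis), with grey bars for the spread of all genes at the level minimum and dotted lines at the 2-fold limit; the open circle marks Il5 where neither array reached the minimum. Il4 and Il13 stand above the 99th percentile of genes for STAT4 loss and Il5 stands far below the bar for STAT6 loss.

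A difference between the changes of 2 members within the same pair of arrays is free of any constant shift between the arrays. For STAT6 loss the change of Il5 minus that of Il4 was −5.41 log2 units and minus that of Il13 was −6.18. Over quantile normalization and loess these values ran no closer to 0 than −5.01 and −5.99. Both rest on an Il5 value 0.13 above the level minimum in the STAT6-deficient array, so their size is uncertain. The change of Il13 stood 0.77 above that of Il4. The guide SD of 0.65 is that of a single difference, and a difference between 2 changes spreads more widely. For STAT4 loss the changes of Il13 and Il4 lay 0.16 apart, and no such value is given for Il5, which was below the level minimum in both arrays. Between the wild types the difference of Il13 stood 0.66 from that of Il4. Il5 minus Il4 was −2.86 there and Il5 minus Il13 was −3.51, values that rest on an Il5 signal within the bacterial control range in wild type Th1 cells and do not measure the size of the change.

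**Figure D3:**
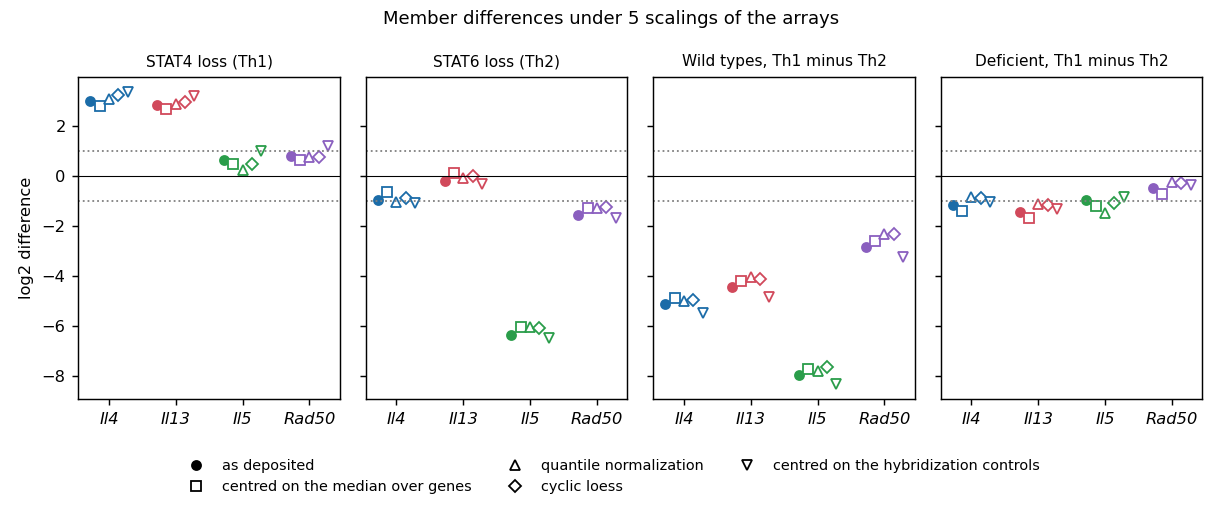
Log2 differences (vertical axis) of each member (horizontal axis) in the 4 comparisons as deposited (filled circles) and after 4 other scalings of the arrays (open symbols), with dotted lines at the 2-fold limit. Il5 stays between −6.48 and −6.04 for STAT6 loss, while Il4 moves from −1.07 to −0.64 across the limit and Il13 from −0.30 to 0.12 across 0.

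The genes beside the locus were described in RefSeq order, taking 12 genes on each side of Il4. Apart from the members, 12 of these 21 genes were measured. Kif3a, which encodes a kinesin motor subunit needed for cilia and is the next gene beside Il4, read 6.87 in wild type Th1 cells, 8.06 without STAT4, 10.82 in wild type Th2 cells and 7.19 without STAT6. It was high in wild type Th2 cells and close to the Th1 arrays without STAT6. Its difference was −3.64 for STAT6 loss, with its 4 probe sets between −3.64 and −1.97, and 1.20 for STAT4 loss, with probe sets between 0.85 and 1.42. Between the wild types its difference was −3.96, lower in Th1, and that of its probe sets nearest to 0 was −1.37. Among members, the STAT6 loss value of Kif3a lies between those of Rad50 and Il5.

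The other called neighbours differed less than Kif3a for STAT6 loss and between the wild types, while for STAT4 loss Irf1 differed more than Kif3a. For STAT4 loss, 7 neighbours reached the level minimum, of which 3 were called higher and none lower. Over all genes 6.18% were called higher and 5.34% lower. The 3 were Irf1, an interferon-induced transcription factor (1.26), Kif3a, and Slc22a5, a carnitine transporter just at the 2-fold limit. The Slc22a5 call was lost under 3 of the 4 other scalings. For STAT6 loss 2 of 6 were called lower, where 19.5% of all genes were, namely Kif3a and the septin gene Septin8 (−1.66). Uqcrq, of respiratory complex III, was called higher (1.06) with another probe set at −0.65, and that count ran from 0 to 2 over scalings. Between the wild types 3 of 7 were higher in Th2, where 25.4% of all genes were, namely Kif3a, Septin8 (−1.32) and Slc22a5 (−1.29, with another probe set at 0.53), and under quantile normalization 1 was. Irf1, the measured gene next to Il5, read 11.64, 12.90, 11.70 and 12.42 in the order of arrays used above, so its wild types were within 0.07 of each other.

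**Figure D4:**
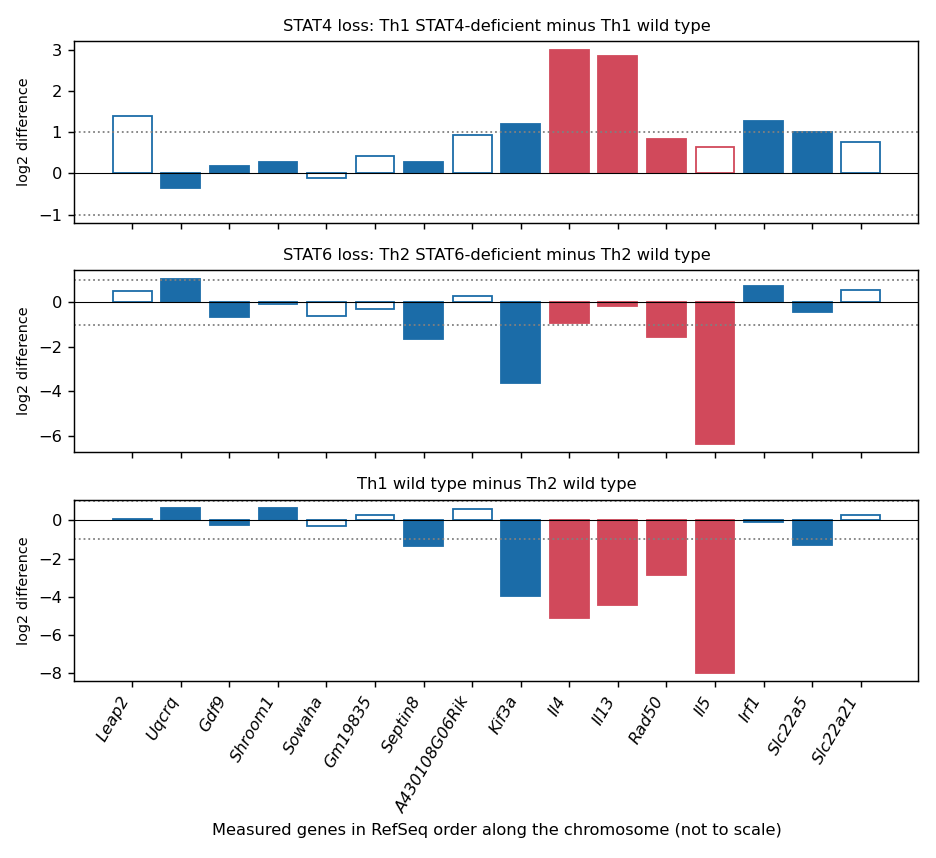
Log2 differences (vertical axes, which differ in range) of the 16 measured genes around Il4 in RefSeq order (horizontal axis, not to scale) for STAT4 loss, STAT6 loss and the wild types; red bars are the members, blue bars the other genes, open bars genes below the level minimum, and dotted lines the 2-fold limit. The larger differences between the wild types run from Kif3a to Il5, and for STAT6 loss Il5 and Kif3a are lowest, at −6.36 and −3.64, with Il4 and Il13 between them at −0.95 and −0.18.

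Genes known to act on the locus were taken from a list of 36, of which 35 were measured. For STAT4 loss, 34 reached the level minimum, of which 1 was called higher and 9 lower, with a list median of −0.18 beside 0.13 over all genes at the level minimum. Over those genes 6.18% were called higher and 5.34% lower. The 9 included Stat4, the targeted gene (−2.26). On the hybridization control scale 4 were higher and 4 lower. The higher one was Gata3, at 11.84 against 9.31. Hlx, a homeobox partner of T-bet, differed by −2.26, Prdm1, which encodes Blimp-1, by −1.43, Nfil3, a basic leucine zipper factor, by −1.38, Runx3, a Th1 factor that silences Il4, by −1.15 with another probe set at 0.11, and the AP-1 gene Junb by −1.15. On the hybridization control scale Nfil3 was at −0.99, and Runx3 and Junb lost their calls too. Maf, an activator of Il4, differed by −1.58, with probe sets from −5.61 to 0.40. Tbx21, which encodes T-bet, stood at −0.91, short of the limit, and at −1.08 after median centring.

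For STAT6 loss 12 of the 34 were called lower and 5 higher, with a list median of −0.23 beside −0.30 over all genes at the level minimum, of which 19.5% were called lower and 7.01% higher. Over the 4 other scalings 9 to 13 regulators were lower and 4 to 7 higher. Gata3 read 11.45 in the STAT6-deficient and 12.95 in the wild type Th2 array, a difference of −1.50. Prdm1 differed by −5.48, Nfil3 by −3.49, and Batf, an AP-1 partner of IRF4, by −2.70. Satb1, which folds the locus into loops, was at −2.03 with all its probe sets at −1.50 or below. Maf was at −5.16 with a probe set at 0.05, and Nfatc2, an NFAT factor that activates cytokine genes, was at −2.08 with another probe set at 0.16. Among the higher genes, Tbx21 was at 4.16 and Zfpm1, a cofactor that restrains GATA3, at 2.26.

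Few genes of the cytokines' own receptors reached the level minimum. Of 7 listed genes 6 were measured, and only Il4ra, the chain shared by the interleukin-4 and interleukin-13 receptors, reached the level minimum. It read 10.76 in wild type Th1 cells, 10.46 without STAT4, 11.95 in wild type Th2 cells and 9.42 without STAT6. It was lowest without STAT6, with a difference of −2.53 and probe sets from −3.24 to −0.98. The STAT4 loss difference was −0.30. Il5ra, the interleukin-5 receptor chain, and Il13ra1 and Il13ra2 were below the minimum in every array.

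Rad50 was set beside a list of 21 genes of the MRN complex and DNA break repair, 18 of them measured. Between the wild types 11 of 18 were called higher in Th2 and none in Th1, with a list median of −1.53 beside −0.37 over all genes at the level minimum and −2.84 for Rad50. Over those genes 25.4% were called higher in Th2. The list count ran from 9 to 14 over scalings. Of the partners of Rad50 in the MRN complex, Mre11a was 1.29 log2 units lower in Th1, with another probe set at 0.59, and Nbn was at −0.23. For STAT6 loss 6 were called lower and 1 higher, beside 19.5% of all genes at the level minimum called lower. After median centring 3 of the list were lower, where 23.6% of all genes at the level minimum were called, 49.5% of them higher. The 6 as deposited were led by the structural maintenance gene Smc5 (−2.08) and the repair genes Brca1 (−1.96, with a probe set at −0.44) and Brca2 (−1.51), beside −1.55 for Rad50, while the break-signalling kinase gene Atm was at 1.23. For STAT4 loss 17 of the list reached the level minimum. Xrcc6, a Ku subunit gene, was called higher (1.08) and no gene lower, where 6.18% of all genes were called higher and 5.34% lower. The higher count ran from 0 to 4 over scalings.

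Other cell types that make or answer to these cytokines were looked for by their markers. Of 12 mast cell and basophil markers 11 were measured, and 5, 4, 3 and 2 of them reached the level minimum in wild type Th1 cells, without STAT4, in wild type Th2 cells and without STAT6, respectively. Their summed linear signal was 724, 618, 783 and 556 in that order. Fcer1a and Ms4a2, which encode chains of the high-affinity IgE receptor, were below the minimum in all arrays, at 4.38 or less. Cpa3, a mast cell protease gene, read 6.96, 5.63, 8.64 and 4.90, highest in the array where Il5 was highest. Kit, Hdc and Gata2 of the same list were lowest in that array, at 3.95, 6.45 and 5.97. Of 4 measured eosinophil markers Ccr3 alone reached the minimum, at 5.97 in wild type Th2 cells. The macrophage and eosinophil marker Adgre1 read 8.26 in wild type Th2 cells and 5.92 or less elsewhere, and the summed signal of 7 myeloid markers was 739 there against 332 to 448. Lyz2 and Itgam of that list were lower there than in either Th1 array, with Lyz2 at 4.88 against 6.28 and 6.45. Of 6 measured B cell markers 1 to 4 reached the minimum per array, and their summed signal was 630 in wild type Th1 cells, 1531 without STAT4, 1120 in wild type Th2 cells and 1157 without STAT6. With STAT4 loss Ighm of that list was called higher (1.54), with probe sets from −0.24 to 1.73. Of 3 NKT and gamma delta T cell markers 1 to 2 reached it, with sums of 693, 990, 242 and 2942 in that order, and Cd160, which activated T and NK cells also carry, was called higher with STAT6 loss (4.39). Of 4 CD8 T and NK cell markers 1 to 2 reached it, with sums of 282, 214 and 472 in the first 3 arrays and 178 without STAT6. The part of such cells in the differences of the members was not tested.

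The genes with the most similar pattern were found by the distance between centred log2 values over the 4 arrays, among 11347 candidates. The measure describes 4 arrays and holds no p-value. The gene nearest to Il4 was Il13, at a root mean square distance of 0.29 log2 units, and the reverse held. After it, Il4 and Il13 shared their nearest genes: Trpm6, 9630050P21Rik, Ung and Tnfsf10, at 0.58 to 0.72 from Il4 and 0.48 to 0.52 from Il13. In wild type Th1 cells 9630050P21Rik (4.64), Ung (5.12) and, by little, Tnfsf10 were below the level minimum. Tnfsf10, which encodes the death ligand TRAIL, read 5.80 in Th1 wild type, 7.85 without STAT4, 8.88 in Th2 wild type and 8.95 without STAT6.

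The genes nearest to Il5 were selected for this likeness, and all 5 were below the level minimum in the other 3 arrays, so their distances partly compare background values. They were Rnf152 (0.35), Cxcl3 (0.52), Cyp11a1 (0.55), Arfgef3 (0.66) and Il6 (0.73). Cxcl3 encodes a neutrophil chemokine, Cyp11a1 the first enzyme of steroid synthesis, and Il6 a cytokine outside the locus. Rnf152, a ubiquitin ligase gene, read 3.25, 3.84, 11.45 and 4.15, bright in wild type Th2 cells alone. Il4 ranked 291st among the genes near Il5 and Il13 ranked 681st. Rad50 was nearest to Nsf (0.07), Tubg1 (0.09), Tgds (0.09), Brip1 (0.10) and Ero1a (0.12). Brip1 reached the level minimum in wild type Th2 cells alone, and Tubg1 was just below it in wild type Th1 cells. Il13 and Il4 ranked 6369th and 6491st from Rad50 and Il5 ranked 11251st. The distance counts the size of the differences as well as their shape, and Rad50 had the array order of the cytokine members over a narrower range. Its correlation over the 4 arrays was 0.96 with Il5, 0.90 with Il4 and 0.84 with Il13. The value with Il5 rests on the wild type Th2 array, the only array where Il5 was bright. The dim Rad50 probe set was lowest in that array.

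**Figure D5:**
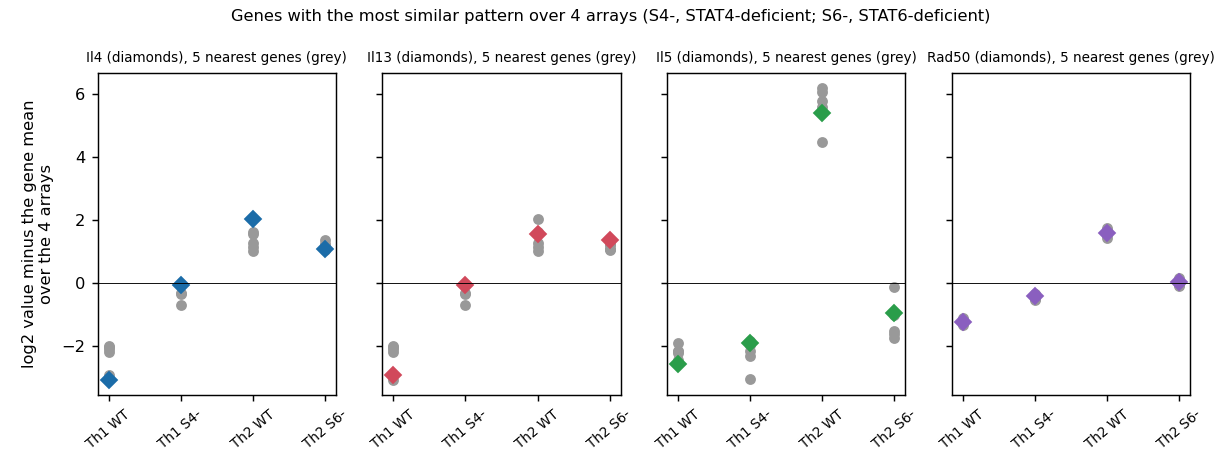
Log2 value minus the gene's mean over the 4 arrays (vertical axis) in each array (horizontal axis) for each member (coloured diamonds) and its 5 nearest genes (grey circles). The grey genes were chosen for their likeness to the member, and those beside Il5 are below the level minimum of 5.82 in the other 3 arrays.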

How the data were processed

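The authors deposited 1 value per probe set and array, made with RMA per the submitters' processing notes; its version and steps are not given in the sources used here. The range of the deposited values is that of the log2 scale RMA returns. Values were used as deposited. Probe sets with 1 gene in the platform annotation (34945; 932 had several, 9160 none) were named, and symbols were updated through RefSeq (GRCm38.p6, 34741 matched). A gene was represented by its probe set with the highest mean; all member probe sets are given. Differences for 4 comparisons were made by subtraction, with no test, since each group had 1 array. Alternatives were median centring, quantile normalization and cyclic loess (limma 3.58.1, R 4.3.3), centring on hybridization controls, probe set means, other level minima (75th percentile, or none) and a 4-fold limit. Named genes were all members, called neighbours, up to 8 called genes per list in the losses, and the 5 most similar genes. Other markers such as Cpa3, Nbn, Mre11a, Tbx21 in STAT4 loss, Gata3 in STAT6 loss, other receptors, and the cytokines of the closing section were named after their values were seen. Members and lists were chosen with earlier results of these data known. Scripts (Python 3.11.15, pandas 2.3.3) were tested on simulated arrays.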

Additional observations from a re-analysis of the deposited data

How the results depend on the processing

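No paired analysis was possible because each group had 1 array and the labels give no replicate numbers; leaving out a replicate was not possible for the same reason. Of 180 alternative values for the main results, 167 were counted as unchanged. A called difference had to keep its direction and its call. An uncalled one had to stay uncalled and move by less than the probe set guide, which also served for differences between 2 changes. A count of called members could go from 2 to 3 and still be counted as unchanged. Many of the 180 could not move. Other level minima leave the size of every difference as it was, as do probe set means for Il4, Il13 and Il5, with 1 probe set each. None of the 180 turned a called value round. For STAT4 loss, Rad50 passed the limit when centred on the hybridization controls (1.21). For STAT6 loss, Il4 passed it under quantile normalization (−1.03) and with the hybridization controls (−1.07). The mean of both Rad50 probe sets ended the Rad50 call (−0.48), which left 1 member called, as did a 4-fold limit. Between the deficient arrays, Il4 was not called under quantile normalization (−0.85) or loess (−0.88), Il5 was called under median centring (−1.19), quantile normalization (−1.49) and loess (−1.06), and a 4-fold limit left 0 members. There, the change of Il5 minus that of Il13 went from 0.46 to −0.40 under quantile normalization. The split of calls over all genes moved with the scaling: the higher share was 53.7% as deposited for STAT4 loss (33.1% to 87.5% over the 4 other scalings), 26.5% for STAT6 loss (20.1% to 49.5%), 24.3% between the wild types (8.89% to 45.2%) and 55.1% between the deficient arrays (30.7% to 68.4%).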

Other observations

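Cytokine genes outside the locus were taken from a list of 31, of which 27 were measured. For STAT6 loss 6 of 27 were called lower and 11 higher, where 19.5% of all genes were called lower and 7.01% higher. Il24, an IL-10 family gene, read 14.60 in wild type Th2 and 7.97 in STAT6-deficient Th2 cells, and Il6 read 12.63 and 5.42. Their differences, −6.63 and −7.21, were on the scale of the −6.36 of Il5. So were those of Il10 (−7.26) and Il21 (−5.88, with another probe set at −4.19). Unlike Il5, both were bright in wild type Th1 cells. For STAT4 loss Il10 differed by −6.80 and Il21 by −7.63, with another Il21 probe set at −2.49. Without STAT4 the Il21 value of 4.67 was below the level minimum, so the size of its difference is uncertain. Il31, which encodes an itch-inducing Th2 cytokine, read 8.88 in wild type Th1, 9.75 without STAT4, 12.25 in wild type Th2 and 11.39 without STAT6, the same order of arrays as Il4. For STAT4 loss 7 of 24 were called lower and 1, Tnfsf10 (2.06), higher, where 5.34% and 6.18% of all genes were called. The higher count was 2 with the hybridization controls. The growth factor genes Il3 and Csf2 differed by 0.63 and 1.06 for STAT6 loss and by −0.26 and −2.52 for STAT4 loss.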
